A study of Homo sapiens with 29 samples.

Results

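Wnt signalling and TCF/LEF genes were followed through 29 RNA libraries from a pair of human prostate cancer cell lines, C4-2 and 22Rv1. The set held 10 genes, taken from 63677 features in each of the deposited count tables by matching the Ensembl identifiers to symbols: LEF1, TCF7, TCF7L1, TCF7L2, CTNNB1, AXIN2, WNT5A, RNF43, ZNRF3 and DKK1. All 10 had a row in both tables. C4-2 was derived from LNCaP by passage in castrated mice, and 22Rv1 from a xenograft that relapsed after castration. Each is a single cultured line, so its behaviour need not carry over to other prostate tumours. The study asked how transcription changes when DNA-PK, a DNA repair kinase, is inhibited. C4-2 had 8 groups of 3 libraries, with NU7441+Enza, CC-115+Enza, CC-223+Enza, NU7441, CC-115, CC-223, Enza or as Ctrl, for which no vehicle is stated. 22Rv1 had 2 CC-115 and 3 Control libraries. Every compound was given at 1 µM for 24 h, and all groups of both lines grew in medium that contained hormone. The labels class NU7441 with CC-115, as inhibitors of DNA-PK, and CC-223 as a TORK (TOR kinase) inhibitor. CC-115 is known to inhibit TOR kinase as well as DNA-PK. Enza is enzalutamide, an antiandrogen. Nothing states whether replicates were separate cultures, so the p-values measure the spread between these libraries, which may be technical.

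In canonical Wnt signalling, secreted Wnt ligands bind Frizzled and LRP receptors and halt the destruction complex that degrades β-catenin. β-catenin, encoded by CTNNB1, then enters the nucleus and binds the TCF/LEF proteins, which sit on the DNA and switch from repression to activation. Feedback is built in: AXIN2 is a scaffold of the destruction complex and itself a target, and RNF43 and ZNRF3 are membrane ubiquitin ligases that remove Frizzled from the cell surface. DKK1 is a secreted antagonist that binds LRP receptors. WNT5A mostly signals without β-catenin, through receptors such as ROR1 and ROR2. In prostate cancer, WNT5A has been linked to resistance to antiandrogens.

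The promoters of 4 members are shown because WNT5A and RNF43 moved most in C4-2, CTNNB1 fell with CC-115 in both lines, and DKK1 was read in 22Rv1 and near 0 in C4-2. Each window holds the 250 bases before a RefSeq transcript start (GRCh38.p14), written 5′ to 3′ along the gene's strand. Capitals mark the TCF/LEF cores CTTTGA and, as a variant, CTTTGT. Both strands were searched, so a core on the other strand reads TCAAAG here, or for the variant ACAAAG. The motifs may share end bases.
WNT5A, chr3:55481399-55481648, minus strand: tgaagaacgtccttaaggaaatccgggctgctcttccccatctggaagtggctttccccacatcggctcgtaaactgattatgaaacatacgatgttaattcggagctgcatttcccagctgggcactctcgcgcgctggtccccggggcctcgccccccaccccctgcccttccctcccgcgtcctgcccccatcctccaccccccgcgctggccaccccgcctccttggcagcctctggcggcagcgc
WNT5A, chr3:55487307-55487556, minus strand: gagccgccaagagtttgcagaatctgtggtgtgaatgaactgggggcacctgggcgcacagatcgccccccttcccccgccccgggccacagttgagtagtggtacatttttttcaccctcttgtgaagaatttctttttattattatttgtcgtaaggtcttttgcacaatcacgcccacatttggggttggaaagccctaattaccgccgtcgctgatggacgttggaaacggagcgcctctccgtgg
RNF43, chr17:58402722-58402971, minus strand: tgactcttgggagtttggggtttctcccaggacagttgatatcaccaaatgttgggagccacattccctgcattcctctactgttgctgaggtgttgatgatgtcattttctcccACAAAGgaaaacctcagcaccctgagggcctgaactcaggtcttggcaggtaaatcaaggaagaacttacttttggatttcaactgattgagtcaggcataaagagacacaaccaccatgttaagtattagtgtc
RNF43, chr17:58417535-58417784, minus strand: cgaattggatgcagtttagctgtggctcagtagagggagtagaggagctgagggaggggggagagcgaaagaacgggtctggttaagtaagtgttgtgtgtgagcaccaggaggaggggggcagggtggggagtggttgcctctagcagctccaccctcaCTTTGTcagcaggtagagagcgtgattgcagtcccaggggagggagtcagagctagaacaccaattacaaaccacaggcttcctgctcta
CTNNB1, chr3:41199255-41199504, plus strand: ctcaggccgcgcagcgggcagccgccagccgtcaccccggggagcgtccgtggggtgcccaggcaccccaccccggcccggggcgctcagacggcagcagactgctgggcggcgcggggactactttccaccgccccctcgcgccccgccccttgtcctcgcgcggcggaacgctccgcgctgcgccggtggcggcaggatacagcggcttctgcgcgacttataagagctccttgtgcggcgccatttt
DKK1, chr10:52314031-52314280, plus strand: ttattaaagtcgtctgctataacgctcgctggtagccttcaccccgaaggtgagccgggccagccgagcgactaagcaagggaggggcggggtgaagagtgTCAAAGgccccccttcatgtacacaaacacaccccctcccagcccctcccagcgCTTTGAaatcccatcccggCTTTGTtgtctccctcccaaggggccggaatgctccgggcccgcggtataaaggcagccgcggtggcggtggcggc
The DKK1 window held 3 TCF/LEF cores, at 149, 95 and 76 bases before the start. Each RNF43 window held a CTTTGT core, at 135 bases before the start in the first and 90 in the second. The WNT5A and CTNNB1 windows held neither motif. Of 35116 RefSeq windows of the same length, 22.8% held CTTTGA or CTTTGT. Windows were found for 8 of the 10 members, and a match describes letters and not a bound site.

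Depth was 29.58 M to 44.86 M counts in C4-2 libraries, and 31.61 M to 44.91 M in those of 22Rv1. A C4-2 pair stood apart from its group mates, Enza replicate 1 and CC-115+Enza replicate 1, each with a mean SD of 0.68 on the log2 scale from its mates, against 0.32 to 0.55 in the other C4-2 libraries. Long noncoding RNA took 8.11% of the counts in CC-115+Enza replicate 1, against 5.29% and 5.6% in its mates. Mitochondrial RNA took 0.96%, 3.52% and 6.12% in Enza libraries, against 0.92%, 2.34% and 1.4% in Ctrl, and protein-coding genes took 76.87% in Enza replicate 3, the lowest share in C4-2. The part of these shares in the results was not tested. Where a call on a member changes without the pair that stood apart, the result without that pair is given. The luminal prostate gene HOXB13 was present in every library, at 109 TMM-scaled CPM or more in C4-2 and 184 or more in 22Rv1, and of 3 endothelial markers PECAM1 was at 0 in all, CDH5 had at most 3 reads, and VWF averaged 0.723 CPM (CC-115+Enza) to 4.09 CPM (Ctrl) over the C4-2 groups. As a check of the Enza labels, KLK3, the androgen-induced gene for prostate-specific antigen, fell by 1.59 ± 0.12 on the log2 scale with Enza (adjusted p = 1.39e-10). Adding Enza to NU7441, CC-115 and CC-223 changed it by −1.94, −1.73 and −1.53. Without Enza, KLK3 rose with CC-115 (1.18) and CC-223 (0.75) in C4-2. It was not called with NU7441 (0.26) or with CC-115 in 22Rv1 (0.28), so the check covers the Enza labels only.

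Levels are given as CPM (each count over the TMM-scaled library total), and CPM per kilobase of exon (CPM/kb) where genes are compared. Each line was scaled on its own, so levels of the lines stand side by side without a test. In C4-2 Ctrl libraries CTNNB1 was highest at 83.9 ± 6.36 CPM/kb (mean ± SD, n = 3). ZNRF3 followed at 4.46 ± 0.33, RNF43 at 1.55 ± 0.149, AXIN2 at 1.34 ± 0.0208 and WNT5A at 0.994 ± 0.0498 CPM/kb. Below these, LEF1 (0.797 ± 0.0894 CPM/kb), TCF7L2 (0.658 ± 0.135) and TCF7 (0.521 ± 0.0765) formed a run in which neighbours overlapped. The order differed in 22Rv1 Control libraries, where CTNNB1 (55.4 ± 2.87 CPM/kb) was followed by RNF43 (7.35 ± 0.704) and DKK1 (7.11 ± 0.898), which overlapped. ZNRF3 (4.14 ± 0.332 CPM/kb), LEF1 (1.81 ± 0.24), AXIN2 (0.671 ± 0.16), TCF7 (0.352 ± 0.0545) and TCF7L2 (0.181 ± 0.0319) came next. AXIN2 shares 1316 of its 5196 exon bases with ENSG00000266076 on the same strand, which had at most 3 reads in a library. Reads in the shared bases may not count for AXIN2, so its CPM/kb may be too low and its place in both orders is uncertain.

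Near 0 was set as every group mean of a line under 0.5 CPM. DKK1 (ENSG00000107984, chromosome 10, 54074056 to 54077802, plus strand, hg19) was near 0 in C4-2, with 0 to 9 reads per library and a highest group mean of 0.0873 CPM. It had no read in any NU7441 or CC-115 library of that line. TCF7L1 (ENSG00000152284, chromosome 2, 85360533 to 85537511, plus strand, hg19), whose product acts mainly as a repressor, was near 0 in both lines, with a highest group mean of 0.185 CPM in C4-2 and 0.254 CPM in 22Rv1. WNT5A in 22Rv1 was little higher, at 0.358 ± 0.31 CPM with CC-115 (n = 2) and 0.597 ± 0.173 CPM in Control (n = 3), so that its Control mean passed 0.5 CPM. Neither DKK1 nor TCF7L1 passed the filter on low counts in C4-2, so tests there cover 8 of the 10 members, and all 10 in 22Rv1. The plot of levels by library shows these patterns.

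**Figure D1:**
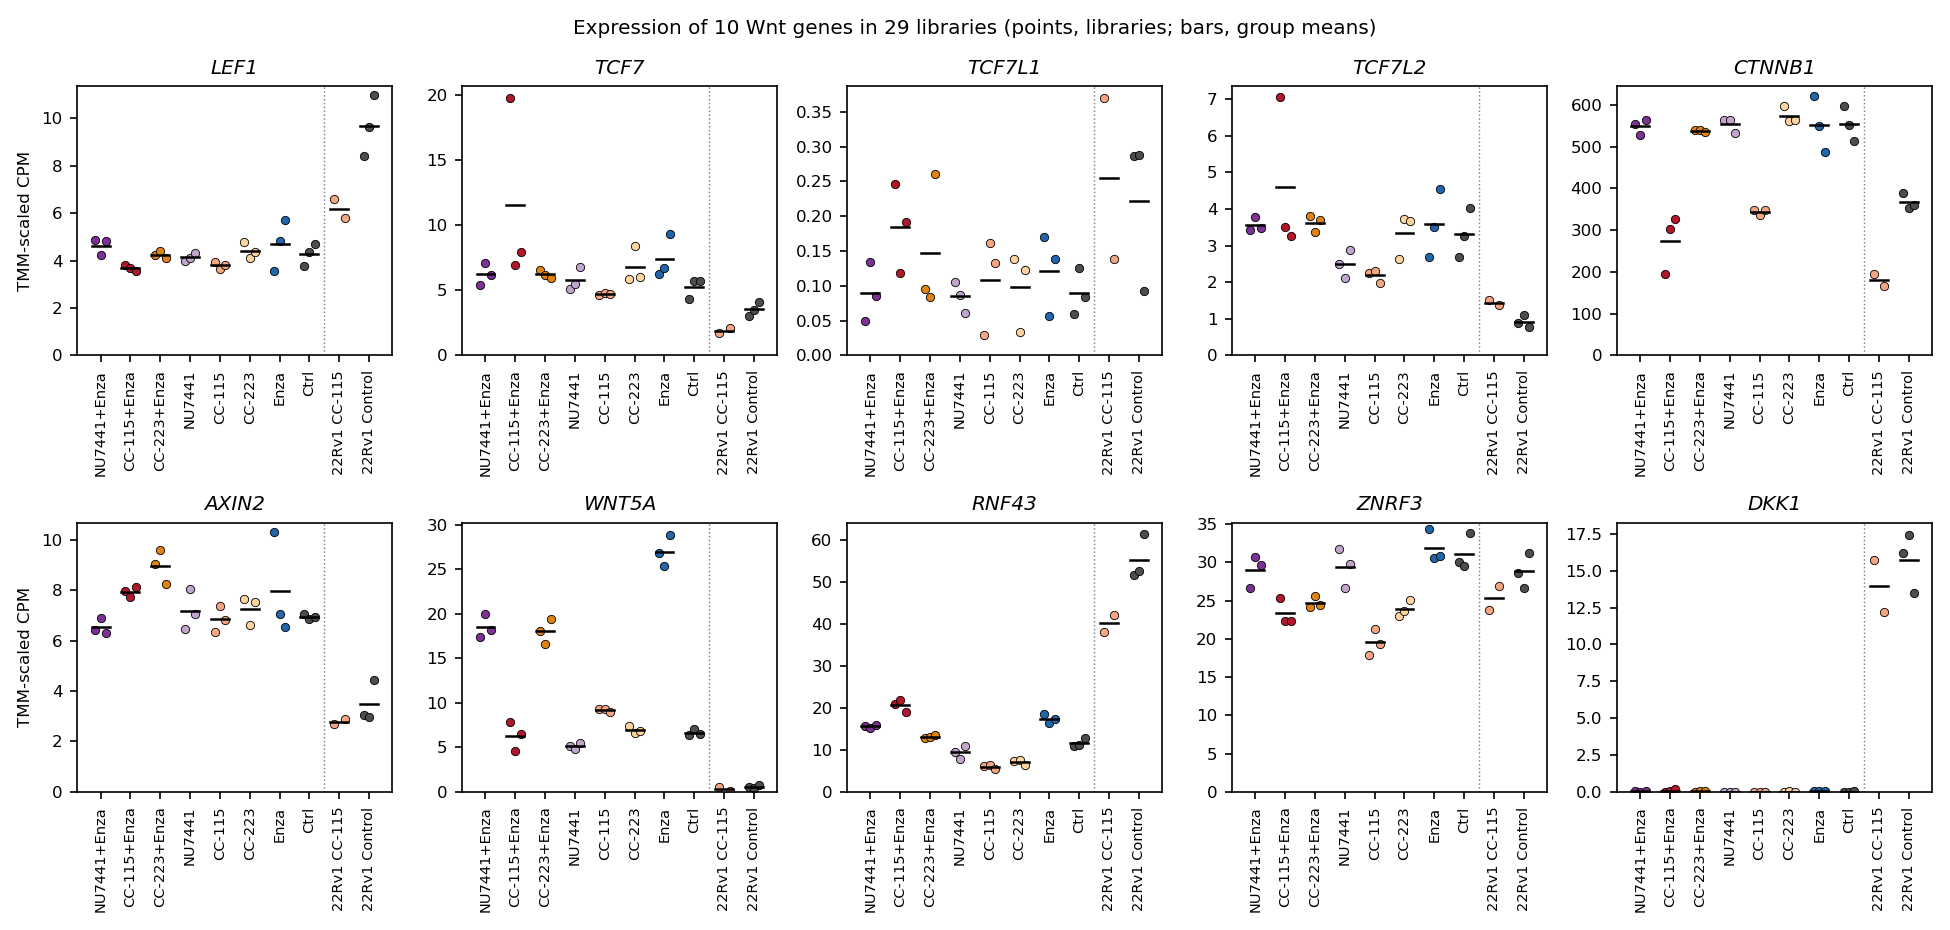
TMM-scaled CPM of the 10 genes (y axes, each from 0) in 10 groups (x axis), with a point for each of 29 libraries and a bar at the group mean; the dotted line parts C4-2 from 22Rv1. WNT5A was 25.3 to 28.8 CPM with Enza and 6.35 to 7 CPM in Ctrl, and DKK1 was near 0 in C4-2.

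WNT5A (ENSG00000114251, chromosome 3, 55499743 to 55523973, minus strand, hg19) moved further with Enza than any other member tested. Its 3 libraries with Enza held 26.8, 25.3 and 28.8 CPM, against 6.35, 7 and 6.52 CPM in Ctrl. The groups lay far apart, and the gene rose 4.06-fold (log2 fold change 2.02 ± 0.13, ± SE here and throughout, adjusted p = 1.03e-11). With NU7441+Enza it held 17.4, 20 and 18.2 CPM, against 5.2, 4.82 and 5.53 CPM with NU7441. With CC-223+Enza it held 18, 16.6 and 19.4 CPM, against 7.4, 6.65 and 6.79 CPM with CC-223. In both pairs no library of the combination overlapped the inhibitor alone, and WNT5A rose by 1.84 ± 0.13 on NU7441 and by 1.37 ± 0.13 on CC-223 (adjusted p = 1.06e-10 and 6.82e-09).

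On CC-115 the direction turned. WNT5A held 7.81, 4.58 and 6.52 CPM with CC-115+Enza, against 9.28, 9.29 and 8.93 CPM with CC-115. Every combination library was lower, and the gene fell by 0.54 on the log2 scale (SE 0.13, adjusted p = 0.00325), although a fit of those groups alone gave an adjusted p of 0.185. Set against Enza, CC-115+Enza lowered WNT5A by 2.10 (log2 fold change −2.10 ± 0.13, adjusted p = 4.78e-13). The difference itself, the CC-115 by Enza interaction, was −2.56 ± 0.18 (adjusted p = 9.62e-10), and it held under all 18 alternative settings. This interaction was called for 2 of 8 members, against 3.27% of all genes tested. For CC-223 the WNT5A interaction was −0.65 ± 0.18 and not called (adjusted p = 0.154), but its adjusted p was 0.00511 without the pair of libraries that stood apart. For NU7441 it was −0.19 ± 0.18 (adjusted p = 0.754, 95% interval −0.54 to 0.17).

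Without Enza, CC-115 raised WNT5A to 9.28, 9.29 and 8.93 CPM, against 6.35, 7 and 6.52 CPM in Ctrl. Those groups did not overlap, and the rise was 0.47 ± 0.13 (adjusted p = 0.0036). NU7441 (5.2, 4.82 and 5.53 CPM) lay below Ctrl in every library, but the change of −0.35 was not called by edgeR (adjusted p = 0.159). It was called without the pair that stood apart (adjusted p = 0.0161) and in a fit of those groups alone (adjusted p = 0.0412). On top of Enza, CC-223 lowered WNT5A by 0.58 on the log2 scale (adjusted p = 0.000804). NU7441 on top of Enza gave −0.54 ± 0.12, a call at the edge (adjusted p = 0.0463) that was lost in 6 of 12 alternatives, with adjusted p from 0.000552 (without the pair) to 0.34 (only the groups compared).

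RNF43 (ENSG00000108375, chromosome 17, 56429861 to 56494956, minus strand, hg19), the ligase that clears Frizzled receptors, rose with Enza on every background, including CC-115, where WNT5A fell. It held 18.5, 16.4 and 17.4 CPM with Enza, against 10.8, 11.2 and 12.9 CPM in Ctrl. No library overlapped, and the rise was 0.58 ± 0.11 (adjusted p = 0.000438). With WNT5A it made 2 of 8 members called for Enza against Ctrl, beside 16.1% of all genes. Adding Enza raised RNF43 by 0.73 ± 0.11 on NU7441, where these same genes were the 2 called members beside 6.08% of all genes, and by 0.88 ± 0.11 on CC-223, where the pair was again called beside 12.4%.

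Of the 4 backgrounds, the rise was largest on CC-115. RNF43 held 20.8, 21.8 and 19.1 CPM with CC-115+Enza, against 6.05, 6.31 and 5.33 CPM with CC-115. The combination stood at 3.49-fold the level of CC-115 (1.80 ± 0.11, adjusted p = 2.81e-12), and in no library did the groups come close. The CC-115 by Enza interaction was 1.22 ± 0.16 for RNF43 (adjusted p = 1.98e-05) and was called under all 18 alternatives, whereas the CC-223 interaction of 0.30 ± 0.16 was not called (adjusted p = 0.547). So WNT5A and RNF43 differed from additivity in opposite directions. The plot of the Enza effect by background sets them beside TCF7 and TCF7L2.

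**Figure D2:**
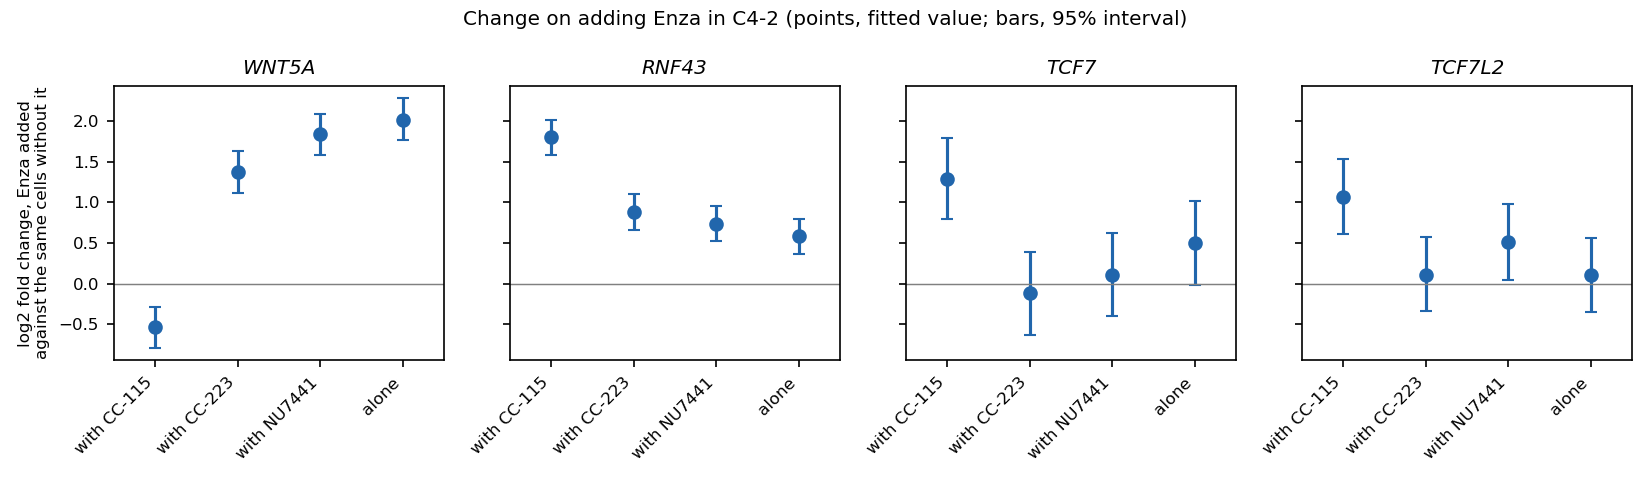
Log2 fold change on adding Enza in C4-2 (y axis) for 4 genes, with CC-115, CC-223 or NU7441 present or alone (x axis); points are fitted values and bars 95% intervals. WNT5A was −0.54 with CC-115 and 2.02 with Enza alone, and RNF43 was 1.80 and 0.58.

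As single agents CC-115 and CC-223 lowered RNF43. CC-115 libraries held 6.05, 6.31 and 5.33 CPM and CC-223 libraries 7.4, 7.58 and 6.45 CPM, against 10.8, 11.2 and 12.9 CPM in Ctrl. Both groups lay below Ctrl throughout, with changes of −0.98 ± 0.11 for CC-115 (adjusted p = 5.29e-08) and −0.70 ± 0.11 for CC-223 (adjusted p = 6.07e-05). NU7441 (9.47, 7.86 and 10.8 CPM) reached the lowest Ctrl library, and its −0.31 was not called (adjusted p = 0.125). That change was called by DESeq2 (−0.34, adjusted p = 0.0474), without NU7441 replicate 3 (−0.45, adjusted p = 0.0457) and without the pair that stood apart (adjusted p = 0.0136). CC-223 kept RNF43 lower on top of Enza as well (12.8, 13.1 and 13.5 CPM with CC-223+Enza, against 18.5, 16.4 and 17.4 CPM with Enza; −0.41, adjusted p = 0.00578). CC-115+Enza against Enza gave 0.24 (adjusted p = 0.0546), or 0.28 without the pair (adjusted p = 0.0191). RNF43 shares 143 exon bases with SUPT4H1 on the same strand, which was not called in these comparisons (−0.04 with CC-115, −0.16 with Enza), and 1521 with TSPOAP1-AS1 on the opposite strand, which had at most 69 reads in a library.

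ZNRF3 (ENSG00000183579, chromosome 22, 29279580 to 29453475, plus strand, hg19), the related ligase, was lower with CC-115 and with CC-223. It held 17.9, 21.3 and 19.4 CPM with CC-115 and 23, 23.6 and 25.1 CPM with CC-223, against 30, 29.5 and 33.8 CPM in Ctrl. All treated libraries lay below all Ctrl libraries, with changes of −0.67 ± 0.10 (adjusted p = 1.91e-06) and −0.38 ± 0.10 (adjusted p = 0.00562). Which kinase lies behind these falls was not tested. NU7441 gave 31.8, 26.7 and 29.8 CPM, which overlapped Ctrl and was not called. Enza alone gave 34.4, 30.6 and 30.8 CPM, which overlapped Ctrl (0.04, 95% interval −0.15 to 0.23). On top of Enza, ZNRF3 fell by 0.45 with CC-115 (adjusted p = 0.00028) and by 0.37 with CC-223 (adjusted p = 0.00544). A fit of only the groups compared ended the first of these calls (adjusted p = 0.0651) and a fit with no filter the second (adjusted p = 0.0637). RNF43 and ZNRF3 were the 2 of 8 members called for CC-223 against Ctrl, beside 23.9% of all genes, and with WNT5A the 3 called for CC-223+Enza against Enza, beside 28.0%.

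CTNNB1 (ENSG00000168036, chromosome 3, 41236328 to 41301587, plus strand, hg19), the coactivator at the centre of the pathway, fell with CC-115 and passed the threshold with neither NU7441 nor CC-223. It held 347, 335 and 347 CPM with CC-115, against 598, 551 and 514 CPM in Ctrl. The groups were separate, and the change was −0.69 ± 0.13 (adjusted p = 7.59e-05). CC-223 (598, 561 and 563 CPM) and NU7441 (563, 564 and 532 CPM) overlapped Ctrl, with changes of 0.05 and 0.00. CC-115 differed from CC-223 by −0.74 ± 0.13 (adjusted p = 4.94e-05) and from NU7441 by −0.69 ± 0.13 (adjusted p = 9.66e-05).

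Enza alone left CTNNB1 at 622, 548 and 488 CPM, across the range of Ctrl. With CC-115+Enza it held 194, 303 and 326 CPM, all below Enza (−1.01 ± 0.13, adjusted p = 3.66e-07). The lowest value belonged to replicate 1, which stood apart, and without that library the change was −0.81 (adjusted p = 8.37e-09). Against CC-115 the combination was not called (−0.32, adjusted p = 0.0759), and the value was −0.12 without replicate 1.

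AXIN2 (ENSG00000168646, chromosome 17, 63524681 to 63557765, minus strand, hg19), often read as a reporter of β-catenin activity, passed the threshold in none of the 18 comparisons in the edgeR fit of all groups. It held 6.34, 7.36 and 6.81 CPM with CC-115, against 7.07, 6.84 and 6.93 CPM in Ctrl, where CTNNB1 fell. The groups overlapped, and the change was −0.02 with a 95% interval of −0.28 to 0.24. Its highest C4-2 library was Enza replicate 1 at 10.3 CPM, against 7.04 and 6.53 CPM in the other Enza libraries. Without that library CC-115+Enza was 0.27 higher than Enza (adjusted p = 0.0305), against 0.00 with it. With CC-223+Enza it held 9.02, 9.58 and 8.25 CPM, against 7.64, 6.61 and 7.52 CPM with CC-223, groups that did not overlap but were not called (0.30, adjusted p = 0.154). That rise was called without the pair that stood apart (0.30, adjusted p = 0.0132) and in a fit of those groups alone (0.31, adjusted p = 0.0043). Against Enza, CC-223+Enza gave 0.17 with all libraries, 0.39 without the pair (adjusted p = 0.00276) and 0.40 without Enza replicate 1 (adjusted p = 0.00648).

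Among the TCF/LEF factors, LEF1 (ENSG00000138795, chromosome 4, 108968701 to 109090112, minus strand, hg19), which activates with β-catenin, varied little in C4-2, with group means from 3.7 to 4.69 CPM. With CC-115+Enza it held 3.83, 3.7 and 3.57 CPM, against 3.56, 4.82 and 5.7 CPM with Enza. The ranges overlapped, and the call of −0.34 ± 0.13 (adjusted p = 0.0307) was lost in 6 of 12 alternatives. CC-223+Enza against Enza gave −0.14, or −0.30 without the pair that stood apart (adjusted p = 0.0434). For NU7441, CC-115 and CC-223 alone the 95% intervals of its log2 fold change were −0.31 to 0.22, −0.44 to 0.10 and −0.22 to 0.31.

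TCF7L2 (ENSG00000148737, chromosome 10, 114710009 to 114927437, plus strand, hg19), the TCF/LEF factor best known from intestinal epithelium, held 2.26, 2.31 and 1.99 CPM with CC-115, against 2.68, 3.25 and 4.04 CPM in Ctrl. Every CC-115 library was lower, and the gene fell by 0.61 on the log2 scale (SE 0.24, adjusted p = 0.0361). Leaving out any of 5 libraries ended that call, with adjusted p up to 0.15. With CC-115+Enza it held 7.05, 3.51 and 3.25 CPM, all above CC-115, a rise of 1.07 (adjusted p = 0.0014) that was 0.63 without replicate 1 (adjusted p = 0.0238) and not called in a fit of those groups alone (adjusted p = 0.0695). NU7441 against Ctrl (−0.42) and NU7441+Enza against NU7441 (0.51) were not called with all libraries, but were without the pair that stood apart, at −0.42 (adjusted p = 0.0406) and 0.52 (adjusted p = 0.0111).

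TCF7 (ENSG00000081059, chromosome 5, 133450402 to 133487556, plus strand, hg19), a factor best known from T cells, held 19.8, 6.96 and 7.94 CPM with CC-115+Enza, against 4.67, 4.78 and 4.72 CPM with CC-115. All combination libraries were higher, replicate 1 by far, and the rise was 1.29 ± 0.26 (adjusted p = 0.000543), or 0.66 without replicate 1 (adjusted p = 0.007). A fit of those groups alone did not call it (adjusted p = 0.0731). Against Enza (6.28, 6.7 and 9.33 CPM) the groups overlapped. The call of 0.64 there (adjusted p = 0.0316) rested on replicate 1, since the change was 0.01 without it (adjusted p = 0.968), and −0.09 without the pair. Enza against Ctrl gave 0.50 (adjusted p = 0.194), or 0.60 without the pair (adjusted p = 0.00501), and CC-223 against Ctrl gave 0.37, called without the pair (adjusted p = 0.0385). TCF7 shares 210 exon bases with SKP1 on the opposite strand, which had up to 10884 reads in a library. How the counting treated strand is not known. SKP1 fell with CC-115 (−0.49 ± 0.14, adjusted p = 0.00332), and TCF7 did not pass the threshold there (−0.15, adjusted p = 0.662). For CC-115+Enza against CC-115, where TCF7 rose, SKP1 was not called (−0.24, adjusted p = 0.206). The part of SKP1 in the TCF7 counts was not tested.

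Counted by comparison, 5 of 8 members were called for CC-115 against Ctrl, 4 lower and 1 higher, beside 53.6% of all genes. For NU7441 against Ctrl edgeR called 0 of 8 members, beside 3.39% of all genes. At an unadjusted p under 0.05 there were 2 (RNF43 and WNT5A), and DESeq2 called 1. Without the pair of libraries 3 were called, among 5011 genes in all. For CC-115+Enza against Enza 5 of 8 were called beside 58.7%, for CC-115+Enza against CC-115 4 of 8 beside 23.8%, and for NU7441+Enza against Enza 1 of 8 beside 0.381%. For CC-115 against Ctrl and for CC-115+Enza against Enza, where more than 50% of all genes were called, the members' share lay near that of all genes. The same held for CC-223 against Ctrl (2 of 8 beside 23.9%) and CC-115 against NU7441 (4 of 8 beside 49.0%). It also held for CC-115 against CC-223 (4 of 8 beside 43.1%) and for CC-115 in 22Rv1 (4 of 10 beside 40.9%). No share of the members was tested against that of all genes. edgeR called 0 of 8 in the NU7441 by Enza interaction, as it called 0 of all genes, with 0 members at an unadjusted p under 0.05 and 0 by DESeq2. The CC-223 by Enza interaction had 0 called members beside 0.376% of all genes, with 1 at an unadjusted p under 0.05 and 0 by DESeq2. Comparisons with the same Ctrl or Enza libraries are not independent of each other.

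**Figure D3:**
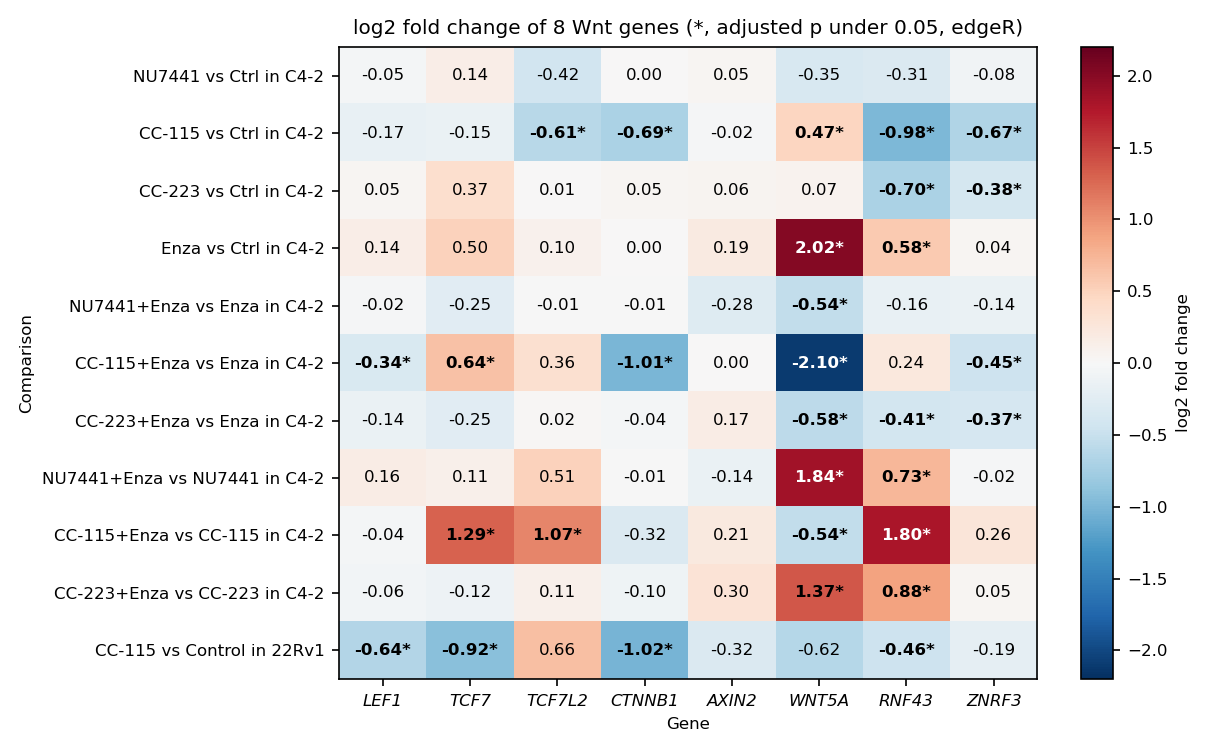
Log2 fold changes of the 8 genes tested in both lines (columns) in 11 comparisons (rows, the named treatment over its control), from blue (lower) to red (higher), with a star at an adjusted p under 0.05. WNT5A ranged from −2.10 to 2.02, and AXIN2 had no star.

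The compounds were compared in 3 pairs at the same dose and time. CC-115 against NU7441 called 4 of 8 members, beside 49.0% of all genes. CTNNB1, RNF43 (−0.67 ± 0.11) and ZNRF3 (−0.59 ± 0.10) were lower and WNT5A was higher (0.82 ± 0.13, adjusted p = 1.06e-05). CC-115 against CC-223 called 4 of 8, beside 43.1%, with CTNNB1, TCF7L2 (−0.62, adjusted p = 0.0423) and ZNRF3 (−0.29, adjusted p = 0.0174) lower and WNT5A higher (0.40, adjusted p = 0.0151). Of these, TCF7L2 lost its call in 7 and ZNRF3 in 6 of 12 alternatives, and WNT5A lost its call without CC-223 replicate 2 (adjusted p = 0.0595). RNF43 (−0.27, adjusted p = 0.0269) and TCF7 (−0.52, adjusted p = 0.00271) were called as well without the pair that stood apart. NU7441 against CC-223 called RNF43 alone (0.39 ± 0.11, adjusted p = 0.0344), 1 of 8 beside 7.31%, and lost it in 6 of 12 alternatives. The count was 3 by DESeq2, 3 with only the groups compared and 4 without the pair, where WNT5A (−0.42, adjusted p = 0.00355), TCF7L2 (−0.43, adjusted p = 0.0345) and ZNRF3 (0.30, adjusted p = 0.00201) were called too. For LEF1 the 95% interval of CC-115 minus CC-223 was −0.48 to 0.05.

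In 22Rv1, CTNNB1 fell with CC-115 as well. It held 195 and 165 CPM with CC-115, against 388, 352 and 359 CPM in Control. The groups were far apart, and the change of −1.02 ± 0.12 (adjusted p = 0.000694) was called under all 9 alternatives. With it, 4 of 10 members were called, all lower, beside 40.9% of all genes in either direction and 20.7% lower. In bulk RNA, fewer cells that express a gene and less RNA per cell cannot be told apart.

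The other members called in 22Rv1 were TCF7, LEF1 and RNF43. TCF7 held 1.69 and 2.08 CPM with CC-115, against 3.01, 3.52 and 4.11 CPM in Control (−0.92 ± 0.23, adjusted p = 0.0146). LEF1 held 6.61 and 5.79 CPM, against 8.4, 9.64 and 11 CPM (−0.64 ± 0.19, adjusted p = 0.0314). RNF43 held 38 and 42.2 CPM, against 51.7, 52.5 and 61.3 CPM (−0.46 ± 0.14, adjusted p = 0.0311). None of these groups overlapped, but LEF1 and RNF43 lost their calls in 5 of 9 alternatives each, and TCF7 lost its call without CC-115 replicate 1 (−0.76, adjusted p = 0.0647). SKP1, which overlaps TCF7, fell by 1.18 in the same comparison (adjusted p = 0.00547), and its part in the TCF7 change was not tested. Small RNA took 17.23% and 15.83% of the counts with CC-115, against 11.87%, 11.19% and 10.84% in Control, and its part in these changes was not tested.

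DKK1 was well expressed in 22Rv1 (15.7 and 12.2 CPM with CC-115, against 16.2, 17.4 and 13.5 CPM in Control), in overlapping groups that were not called (−0.17, adjusted p = 0.513). TCF7L2 ran the other way from LEF1 and TCF7, at 1.5 and 1.39 CPM with CC-115, against 0.884, 1.09 and 0.766 CPM in Control. Those groups did not overlap, yet the change of 0.66 was not called (adjusted p = 0.0712). AXIN2 (2.68 and 2.88 CPM, against 3.05, 2.97 and 4.44 CPM) and ZNRF3 (23.8 and 26.9 CPM, against 28.6, 26.7 and 31.3 CPM) were not called either. TCF7L1 had 16 and 4 reads with CC-115, against 13, 13 and 3 reads in Control, and its log2 fold change of 0.21 had a 95% interval of −1.02 to 1.44. WNT5A held 0.577 and 0.139 CPM with CC-115, against 0.508, 0.487 and 0.797 CPM in Control, in overlapping groups that were not called (−0.62).

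The CC-115 effect was tested for a difference between lines, as 22Rv1 minus C4-2, and 4 of 10 members were called, beside 27.5% of all genes. For TCF7L2 the difference was 1.31 ± 0.29 (adjusted p = 0.00402), with 0.66 in 22Rv1 and −0.61 in C4-2, and it was called under all 15 alternatives. The difference was 0.57 for RNF43 (adjusted p = 0.0169; −0.46 in 22Rv1 and −0.98 in C4-2), 0.53 for ZNRF3 (adjusted p = 0.0195; −0.19 and −0.67) and −0.71 for TCF7 (adjusted p = 0.0329; −0.92 and −0.15). Each of these 3 was lost in 4 to 6 of the 15. For CTNNB1 the difference of −0.28 was not called (adjusted p = 0.134). The plot of CC-115 in both lines gives all 8 genes.

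**Figure D4:**
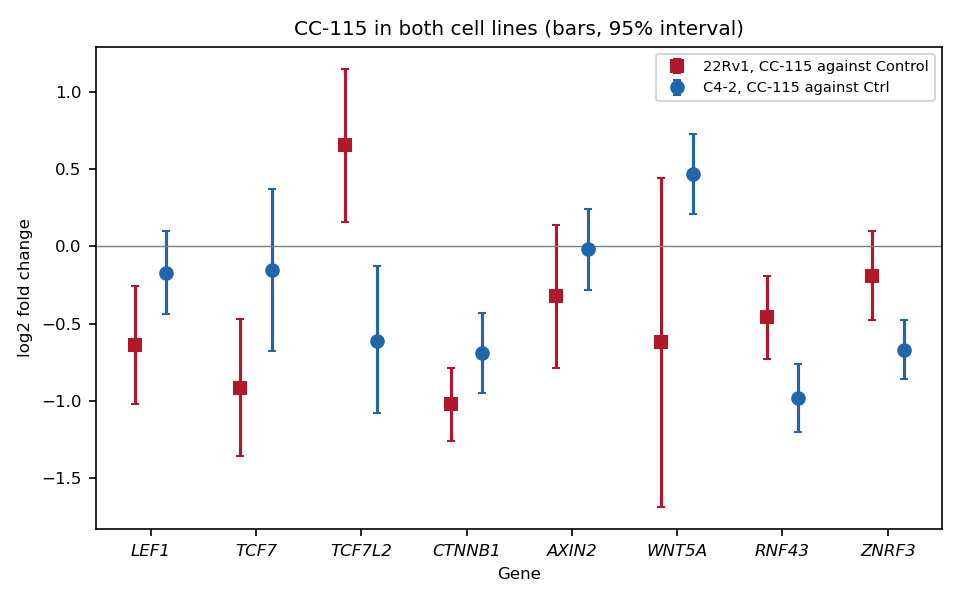
Log2 fold change with CC-115 (y axis) for 8 genes (x axis) in 22Rv1 (squares) and C4-2 (circles), with 95% intervals. CTNNB1 lay below 0 in both lines, and TCF7L2 was 0.66 in 22Rv1 and −0.61 in C4-2.

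The rest of the pathway was read from 92 other Wnt genes, of which 64 could be tested in C4-2 and 69 in 22Rv1. With CC-115 against Ctrl in C4-2, 10 rose and 27 fell, with a median of −0.16 against 0.03 for all genes, beside 27.6% of all genes higher and 26.0% lower. The ligand WNT7B held 1.25 ± 0.214 CPM with CC-115 and 8.04 ± 0.762 CPM in Ctrl (SD, n = 3 each; −2.68, adjusted p = 6.02e-11), and WNT10B fell by 2.02. Of 8 ligands tested 3 fell and 5 were not called, and their median was 0.22, above that of all genes. WLS, which carries Wnt ligands to the membrane, fell by 1.10. Among 13 receptors 6 fell and 1 rose, with FZD9 at −1.42 and ROR1, a receptor for WNT5A, at −1.31 (2.39 ± 0.33 CPM with CC-115 and 5.92 ± 0.233 CPM in Ctrl). In the destruction complex 4 of 7 fell, led by AMER1 (−1.15) and GSK3B (−0.42). Among 8 targets 5 fell, with ASCL2 at −1.81 and the cyclin gene CCND1 at −1.26 (96.6 ± 3.14 CPM with CC-115 and 231 ± 3.21 CPM in Ctrl), and BAMBI (1.19) and MYC (0.45) rose. LGR4, an R-spondin receptor that counters RNF43 and ZNRF3, fell by 0.62. Among 6 secreted or membrane antagonists 3 rose and 2 fell, with APCDD1 at 0.98 and KREMEN2 at −0.92. Among 16 nuclear cofactors 4 rose and 5 fell, with TLE2 at 0.87 and PYGO1 at −1.15.

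CC-223 called fewer of the 64, with 8 higher and 2 lower, beside 12.9% and 10.9% of all genes, and a median of 0.02 against 0.07. LGR4 rose with CC-223 (81.7 ± 2.39 CPM, against 51 ± 2.44 CPM in Ctrl; 0.68, adjusted p = 2.67e-05), and the target TNFRSF19 rose by 1.05. WNT10B (−0.64) and AMER1 (−0.53) fell. NU7441 called 4 higher and 2 lower, beside 2.28% and 1.11% of all genes, with a median of 0.05 against 0.02. Among them were WNT9A (0.94), the receptor FZD7 (0.66), TNFRSF19 (0.37) and AMER1 (−0.35).

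With Enza against Ctrl, 17 of 64 rose and 8 fell, beside 9.35% of all genes higher and 6.75% lower, with a median of 0.12 against 0.06 for all genes. The ligand WNT4 (1.10) and WNT9A (0.97) rose, as did both genes needed to secrete ligands, WLS (0.65) and PORCN (0.53). FZD7 held 4.36 ± 0.531 CPM with Enza and 1.89 ± 0.22 CPM in Ctrl (1.21, adjusted p = 1.04e-06), and FZD2 rose by 1.04. TLE3, a corepressor that binds TCF/LEF proteins, held 169 ± 32 CPM with Enza and 83.6 ± 9.78 CPM in Ctrl (1.02, adjusted p = 1.22e-06). FZD5 (−0.55), LGR4 (−0.41), TNFRSF19 (−0.86) and MYC (−0.43) fell.

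With CC-115 in 22Rv1, 14 of 69 rose and 19 fell, beside 20.2% of all genes higher and 20.7% lower. The list's median was 0.14 against −0.02 for all genes, opposite in sign to the excess of falls. Of 13 receptors 8 fell and 3 rose, with FZD4 at −1.20 and FZD3 at −1.19. All 3 dishevelled genes, whose proteins relay the signal from Frizzled, rose, with DVL1 at 333 ± 76.4 CPM (n = 2) against 159 ± 15.3 CPM in Control (n = 3; 1.06, adjusted p = 0.00173). APC (−0.97) and CSNK1A1 (−0.79) of the destruction complex fell and AXIN1 (0.74) rose. ASCL2 fell by 1.86 and PYGO1, a β-catenin cofactor, by 1.11.

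**Figure D5:**
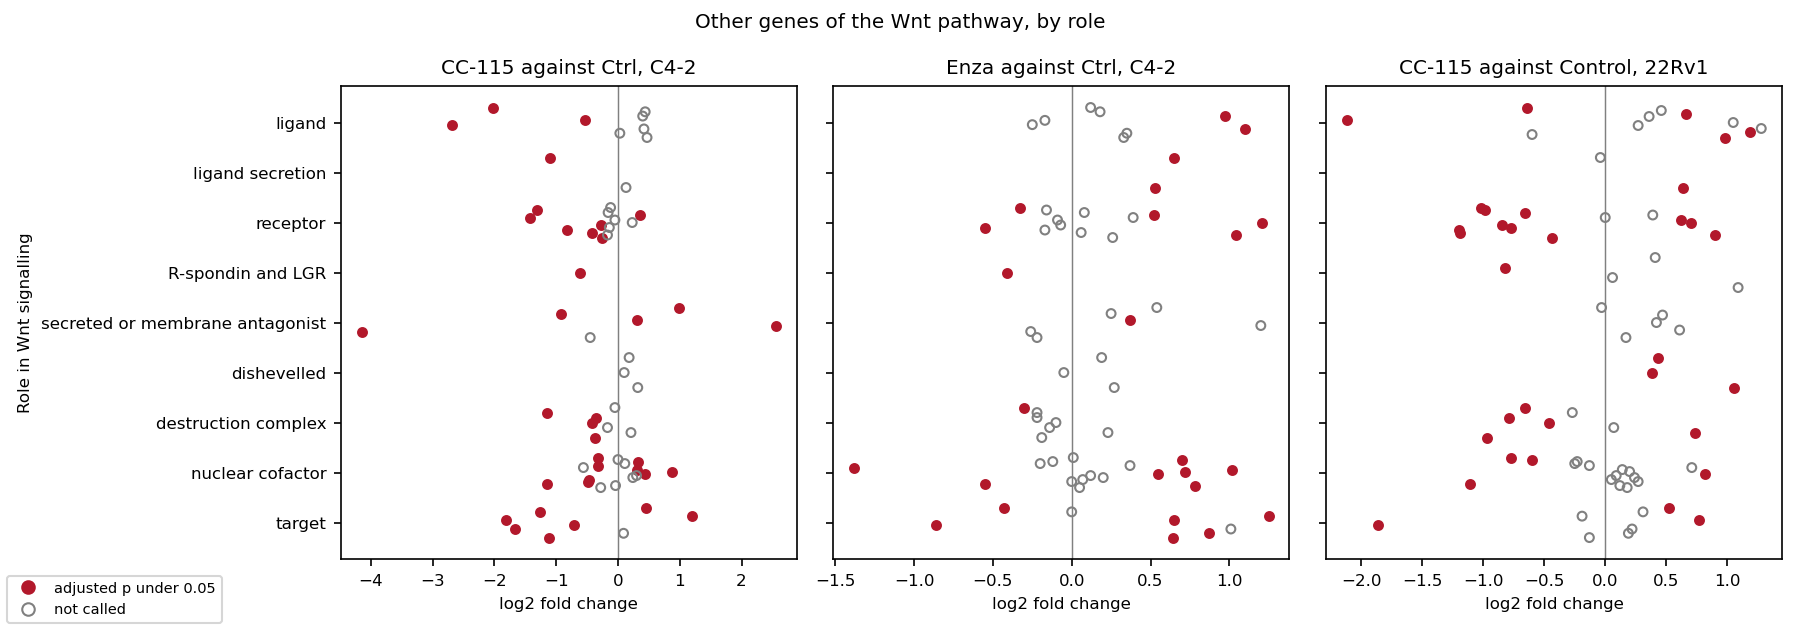
Log2 fold change (x axes, scales differ) of the other Wnt genes tested, grouped by role (y axis), in 3 comparisons; filled points passed an adjusted p of 0.05 and open points did not. In C4-2 receptors and targets lie mostly left of 0 with CC-115, and both ligand secretion genes lie right of 0 with Enza.

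Across the 24 C4-2 libraries, the protein-coding gene whose log2 CPM ran closest to a tested member was sought among 11295 genes. These libraries share treatments, so the correlations describe how treatment groups moved together. CTNNB1 ran closest to TXN, the thioredoxin gene (r = 0.996), RNF43 to the potassium channel gene KCNK5 (r = 0.966), ZNRF3 to CNNM4 (r = 0.961) and TCF7 to PDZD2 (r = 0.946, or 0.856 without the libraries that stood apart). WNT5A ran closest to the homeobox gene HOXC9 (r = 0.864), LEF1 to RAP1A (r = 0.799) and AXIN2 to HEXIM2 (r = 0.791).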

How the data were processed

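RNA-seq was run on total RNA of both lines with a stranded kit that depletes ribosomal RNA, per the labels' protocols. The deposited values are raw read counts per Ensembl feature, 1 table per line. Per the submitters' processing notes the authors used STAR 2.5.2a, featureCounts 1.5.0-p3, DESeq2 1.14.1 and hg19. For the annotation release and strand setting, the sources used here say nothing. All value columns matched a sample. Counts ranged from 29.58 M to 44.91 M per library.

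Genes passing filterByExpr (22860 in C4-2, 19392 in 22Rv1, 22922 in the joint fit for the difference between lines) were scaled by TMM and tested by quasi-likelihood in edgeR 4.0.16, robustly, under R 4.3.3 with limma 3.58.1, fitting 1 coefficient per group over all groups of a line. Benjamini-Hochberg adjustment ran over all genes of a comparison, and calls had an adjusted p under 0.05. The SE was taken from F, as the size of the log2 change over the root of F, and 95% intervals are 1.96 SE. Such intervals are narrower than the test implies where libraries are few, as in 22Rv1. For KLK3 with CC-115 there, the interval was 0.04 to 0.53, although the unadjusted quasi-likelihood p was 0.0546. Log2 CPM used a prior count of 2. The method was run on counts simulated from its own fitted spread, for Enza against Ctrl in C4-2 and CC-115 against Control in 22Rv1. Such counts follow the model by design, so the run cannot show how well the model suits these data. It did not cover the interactions or the difference between lines. The alternatives were median-of-ratios size factors, DESeq2 1.42.0, no filter, a replicate block, each library left out in turn, only the groups compared, and leaving out Enza replicate 1 with CC-115+Enza replicate 1. Python 3.11.15, pandas 2.3.3, numpy 2.4.6 and matplotlib 3.10.9 were used.

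All 10 members are named whatever their values. From the 92 other Wnt genes, those named are taken from up to 2 called genes per role and direction with the largest change, at an average log2 CPM no lower than 0, in each inhibitor and Enza against its control. The members and lists were chosen with earlier results of these data known. Promoters are from RefSeq. A few selected results are not reported here.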

Additional observations from a re-analysis of the deposited data

Results flagged for a closer look

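The effect of Enza on WNT5A in C4-2 differed between cells with and without CC-115, by −2.56 ± 0.18 on the log2 scale (adjusted p = 9.62e-10). For RNF43 the same difference ran the other way, at 1.22 ± 0.16 (adjusted p = 1.98e-05). Both were drawn to attention because the difference between effects was itself tested and called.

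The effect of CC-115 differed between 22Rv1 and C4-2 in 4 members, each by a test of the difference (22Rv1 minus C4-2). It was 1.31 ± 0.29 for TCF7L2 (adjusted p = 0.00402), 0.57 ± 0.16 for RNF43 (adjusted p = 0.0169), 0.53 ± 0.15 for ZNRF3 (adjusted p = 0.0195) and −0.71 ± 0.23 for TCF7 (adjusted p = 0.0329). The lines were deposited in separate tables and differ in group size, so line and table cannot be told apart.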

How the results depend on the processing

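Of 148 member results tested, 45 were called, and 26 of these kept their call and direction under every alternative run. The other 19 lost the call under at least 1 alternative. A further 24 results passed the threshold under an alternative only, with no change of sign there. The sign turned in 2 results, both for CC-115+Enza against Enza. TCF7 went from 0.64 to −0.09 without Enza replicate 1 and CC-115+Enza replicate 1. AXIN2 had almost no change with all libraries, so its sign there means little. It stood at 0.27 without Enza replicate 1 (−0.07 to 0.27 over the libraries left out in turn). That AXIN2 value passed the threshold (adjusted p = 0.0305) and is not among the 24.

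Without that pair of libraries, members called changed to 3 for NU7441 against Ctrl (0 with all libraries), 5 for CC-223+Enza against Enza (3), 1 for the CC-223 by Enza interaction (0) and 4 for NU7441 against CC-223 (1). With only the groups compared in the fit, they were 1 for NU7441 against Ctrl, 0 for NU7441+Enza against Enza (1), 2 for CC-115+Enza against Enza (5), 1 for CC-115+Enza against CC-115 (4) and 3 for NU7441 against CC-223. Without a filter, they were 4 for the CC-115 by Enza interaction (2), 0 for NU7441 against CC-223 and 2 for the difference between lines (4). DESeq2 called 1 for NU7441 against Ctrl and 3 for NU7441 against CC-223, where median-of-ratios size factors gave 2. Leaving out 1 library in turn gave 0 to 1 for NU7441 against Ctrl, 0 to 1 for NU7441+Enza against Enza, 3 to 6 for CC-115+Enza against Enza, 1 to 3 for CC-115 against CC-223 (4), 0 to 2 for NU7441 against CC-223, 2 to 3 in 22Rv1 (4) and 1 to 5 for the difference between lines. Where this left 1 CC-115 library in 22Rv1, that library was assumed to vary like the others.

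The replicate numbers were not shown to pair the libraries: same-numbered libraries' deviations correlated at −0.19 to 0.13 in C4-2 and at −0.36 and 0.3 in 22Rv1. With the replicate block, members called were 0 for NU7441+Enza against Enza, 0 for NU7441 against CC-223 and 2 in 22Rv1.

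Counts over all genes, which set the background shares, moved as well. Without the pair of libraries they were 5011 for NU7441 against Ctrl (776), 9900 for CC-223 (5456), 598 for NU7441+Enza against Enza (87), 3632 for NU7441+Enza against NU7441 (1389), 6145 for CC-223+Enza against CC-223 (2839), 1425 and 444 for the CC-115 and CC-223 interactions (747 and 86) and 5823 for NU7441 against CC-223 (1672). With only the groups compared they were 2706 for NU7441, 9382 for CC-223, 1053 for Enza (3679), 0 for NU7441+Enza against Enza, 8115 for CC-115+Enza against Enza (13415), 3863 for CC-223+Enza against Enza (6398), 1908 for CC-115+Enza against CC-115 (5451) and 166 for the CC-115 interaction. With median-of-ratios size factors, 44.4% of the CC-223 interaction calls were higher, against 33.7% with TMM. Leaving out 1 library in turn gave 76 to 813 for NU7441 against Ctrl, 0 to 1173 for NU7441+Enza against Enza, 1808 to 4998 for Enza, 3501 to 7792 for CC-115+Enza against CC-115, 388 to 1250 and 47 to 117 for the CC-115 and CC-223 interactions, 877 to 1685 for NU7441 against CC-223 and 4902 to 8538 in 22Rv1 (7925), so these background shares depend on single libraries. The cause of these shifts was not tested. At this depth genes near 0, DKK1 and TCF7L1 in C4-2, could not be compared.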
